A study of Mus musculus with 2 samples.

Results

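Hair follicle shaft and sheath spots were capture spots in which UMIs (unique molecular identifiers, here counted molecules) of 8 follicle genes outweighed those of 5 epidermal genes. A spot belonged to the set when it held at least 100 UMIs in all, when Krt25, Krt27, Krt28, Krt71, Krt34, Krt35, Krt75 and Tchh together gave at least 3 UMIs and 0.5% of its UMIs, and when that sum exceeded the sum of Lor, Krt10, Krt1, Krtdap and Sbsn. The rule took in 380 of 5745 spots with at least 100 UMIs, out of 6464 spots in the files. A spot is a small area of a section that can hold several cells of different types or part of one, so the set describes places on the section and not single cells. The selecting values come from the same counts that are described here, so levels of these spots against the rest of the section are given as a description.

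The study placed a flat implant or a micropillar implant in nude mice, and spatial transcriptomics was run on the regenerated tissue, labelled bone, from formalin-fixed paraffin-embedded slides. Each group is 1 library, flat or micropillar, and the number of animals behind a library is not given in the labels. With 1 library per group no test between the implants was possible, and every difference between them compares 2 libraries. The nude genotype is shared by both groups, so no group has follicles of another genotype.

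The hair follicle is a set of concentric epithelial layers around a growing hair. Its central shaft (medulla, cortex and cuticle) is built from hard keratins and keratin-associated proteins, the inner root sheath around it moulds the shaft with its own keratins and with trichohyalin, a companion layer separates the sheaths, and the outer root sheath is continuous with the epidermis. Keratins work as pairs of a type I and a type II protein, whose genes lie in separate clusters. Nude mice carry a defect of Foxn1, a transcription factor active in follicles and thymus, and are known for follicles that form but make weak, bent shafts.

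The inner root sheath keratin genes that mark these spots are close neighbours. Krt25, Krt26, Krt27 and Krt28, the type I genes, lie together within 59388 bases of chromosome 11, and Krt71, Krt72 and Krt73, their type II partners, within 68398 bases of chromosome 15, by GENCODE M21 on mm10. Krt34 and Krt35, type I keratins of the shaft, lie within 58895 bases of the same chromosome. The 150 bases before the RefSeq start (GRCm38.p6) are shown for 3 of the neighbouring sheath genes, for 1 type II sheath gene and, to set beside them, for 1 shaft gene. Capitals mark the TATA letters TATAAA, found in all 5 windows, and the LEF/TCF letters CTTTGAA, found among these windows in that of Krt34.
Krt25, chr11:99322952-99323101, minus strand: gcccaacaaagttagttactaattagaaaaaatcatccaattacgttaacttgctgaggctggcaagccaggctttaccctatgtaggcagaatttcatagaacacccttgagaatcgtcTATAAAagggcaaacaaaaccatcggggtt
Krt26, chr11:99337966-99338115, minus strand: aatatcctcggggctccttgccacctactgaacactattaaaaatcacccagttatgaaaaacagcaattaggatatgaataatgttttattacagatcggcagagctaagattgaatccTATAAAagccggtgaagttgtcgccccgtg
Krt28, chr11:99374904-99375053, minus strand: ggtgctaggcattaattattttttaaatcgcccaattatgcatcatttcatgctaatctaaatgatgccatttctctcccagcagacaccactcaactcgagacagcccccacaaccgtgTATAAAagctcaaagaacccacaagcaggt
Krt71, chr15:101743098-101743247, minus strand: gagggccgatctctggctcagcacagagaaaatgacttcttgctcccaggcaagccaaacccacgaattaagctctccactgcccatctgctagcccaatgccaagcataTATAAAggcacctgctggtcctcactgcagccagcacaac
Krt34, chr11:100041555-100041704, minus strand: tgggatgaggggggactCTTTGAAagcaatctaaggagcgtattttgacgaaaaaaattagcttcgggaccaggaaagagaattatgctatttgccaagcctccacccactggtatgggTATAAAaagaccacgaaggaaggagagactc
TATAAA began 30 bases before the start in Krt25, Krt26 and Krt28, 40 bases before it in Krt71 and 31 bases before it in Krt34. Krt27 and Krt73 also held it, at 15 and 30 bases, while the windows of Krt75, Tchh and Padi3 did not hold these letters. Over 32851 promoter windows of 250 bases before to 50 after the start, searched on both strands, 7.57% held TATAAA, and 2.63% held it on the sense strand in the last 50 bases before the start. CTTTGAA stood 133 bases before the start in Krt34 and 144 bases before it in Tchh, and 2.40% of all windows held it. The letters were chosen after these windows had been read, and a match is a description of sequence and not of binding.

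In the flat library 143 of 2681 spots belonged to the set (5.33%, 95% interval 4.51 to 6.25), and in the micropillar library 237 of 3064 (7.73%, 6.81 to 8.74). All intervals given are exact Clopper-Pearson intervals at 95% and cover counting error only. The share was higher in the micropillar library, whose kept spots outside the set were also deeper, with a median of 872 UMIs per spot against 618. With each spot thinned to 250 UMIs and shallower spots left out, the shares were 6.07% of 2028 spots (5.07 to 7.19) and 6.77% of 2733 (5.86 to 7.78), so that the gap between the libraries was smaller. The set held 74561 UMIs of the flat and 147765 UMIs of the micropillar library, 3.29% and 4.66% of the UMIs of kept spots, with a median of 470 (111 to 1292) and 546 (167 to 1805) UMIs per spot. Of all barcodes 2135 occurred in both libraries, which is 67.5% of the flat and 64.6% of the micropillar barcodes, and 25 barcodes belonged to the set in both. In this assay a barcode names a position on the capture area, and the libraries were counted separately.

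Members held a larger part of the follicle UMIs in the flat than in the micropillar library. They took 2898 of 3254 UMIs of the 8 follicle genes in the flat library (89.1%) and 5497 of 6787 in the micropillar library (81.0%). Their follicle gene share ran from 0.555% over a median of 3.06% to 8.18% of a spot's UMIs in the flat library and from 0.503% over 2.78% to 9.49% in the micropillar library. Just inside the threshold, 9 flat and 27 micropillar spots held exactly 3 such UMIs, and just outside it 55 and 134 spots held 2. A further 4 flat and 115 micropillar spots had enough UMIs but stayed under 0.5%, with up to 0.491% and 0.495% and a median of 720 and 1569 UMIs, and 9 and 5 spots were left out for their epidermal UMIs. Outside the set, 262 flat and 708 micropillar spots held at least 1 UMI of these genes, at 0.0163% and 0.0426% of the UMIs of the other spots.

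The marker genes bore out the name of the set, as they had to by the rule. Tchh, which encodes the trichohyalin of the inner root sheath and medulla, gave 1499 UMIs in the flat and 2822 in the micropillar spots, or 20104 and 19098 CPM (the gene's UMIs scaled to the same total of 1e+06 UMIs in each set of spots). Among the type I sheath keratins Krt25 gave 385 and 584 UMIs, Krt27 271 and 468, and Krt28 164 and 340, and the type II sheath keratin Krt71 gave 350 and 787. Krt75, a type II keratin of the companion layer, gave 147 and 309 UMIs. The shaft keratins gave fewer UMIs, with 35 and 95 for Krt34 and 47 and 92 for Krt35. A median spot held UMIs of 5 of the 8 genes in each library, 74 flat and 120 micropillar spots held at least 5 of them, and the 5 flat and 15 micropillar spots with 1 of the genes alone all had Tchh. By UMIs, which are not corrected for how well each gene is captured, most of what chose these spots was Tchh and sheath keratin.

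Genes of bone, the labelled tissue, were scarce both in these spots and in the other spots. Of 7 bone genes in the files, Ibsp and Sp7, both made by osteoblasts, had no UMI there, and Bglap, which encodes osteocalcin, had 5 UMIs in the flat and 17 in the micropillar spots. Summed, the bone list reached 241 and 217 CPM against 219 and 248 CPM in the other spots. That is 1.1-fold (0.647 to 1.76) and 0.873-fold (0.592 to 1.24), with both intervals holding 1. The other spots held 7869 and 6010 CPM of a neuron list, against 241 and 656 CPM in the hair follicle spots.

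Beyond the rule genes, every keratin gene with enough UMIs followed the set. A gene was compared when it had at least 20 UMIs over the hair follicle spots of both libraries and was called when it differed at least 2-fold in both, on log2 CPM with 10 CPM added. Of 2715 genes compared with the other spots, 870 (32%) were called higher, and over all of them the median log2 ratio was 0.66 for the flat and 0.60 for the micropillar library. The files hold 48 keratin genes, 39 of them outside the rule, and all 18 of these that passed the minimum of UMIs were called higher. Since the rule chose spots by keratins, and since the minimum itself favours genes high in these spots, nothing is read from that count. The minimum acts alike on every list below, so a list called higher than other spots in full is likewise only a description. More cells of a kind under a spot and more RNA per cell cannot be told apart in any of these values.

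**Figure D1:**
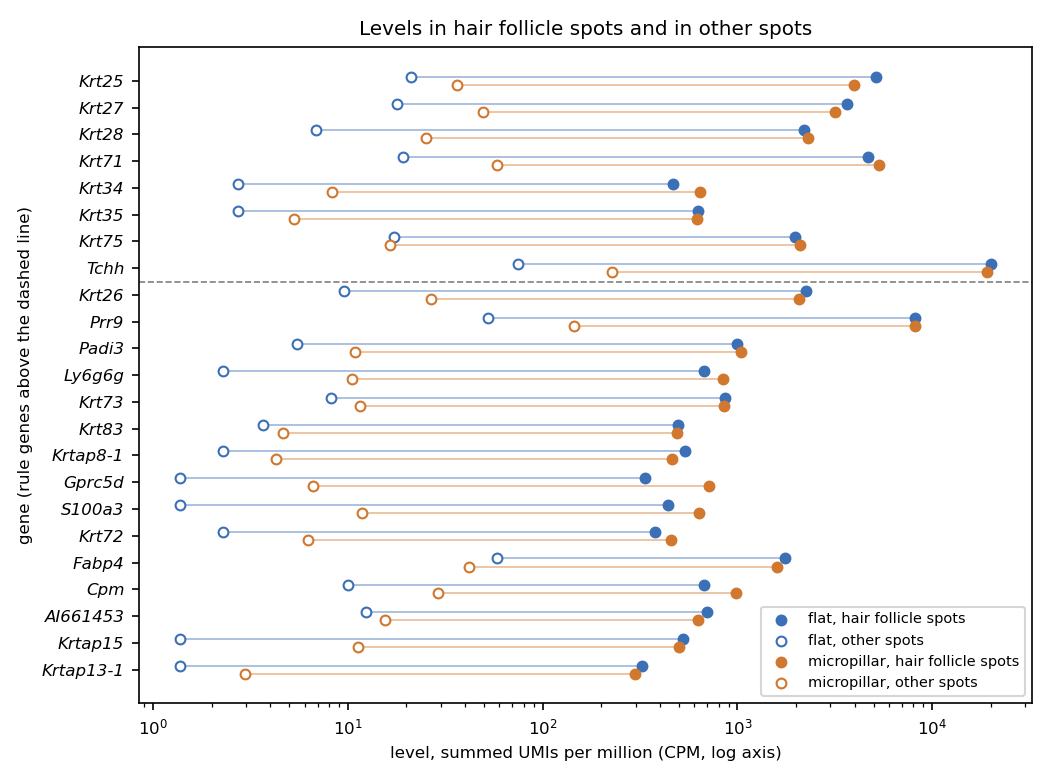
Level in CPM (log axis) of the 8 rule genes, above the dashed line, and of the 15 other genes with the highest ratio, in hair follicle spots (filled) and other spots (open) of the flat (blue) and micropillar (orange) library. Filled points of both libraries nearly coincide for most genes, as for Prr9 at 8114 and 8148 CPM, while the open points sit higher in the micropillar library for all plotted genes but Krt75 and Fabp4.

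Inner root sheath keratins outside the rule were each found in the set at more than 70 times the level of the other spots. Krt26, whose gene lies between Krt25 and Krt27 (chr11:99328550-99337966), gave 168 UMIs in the flat and 304 in the micropillar hair follicle spots, 2253 and 2057 CPM, against 9.59 and 26.8 CPM in the other spots. That is 235-fold (149 to 389) and 76.9-fold (60 to 99.5), and the levels in the set were alike in both libraries while the level outside it was not. A Krt26 UMI was present in 49.7% and 50.2% of hair follicle spots and in 0.827% and 2.79% of the deeper other spots. Krt73 gave 64 and 126 UMIs, 104-fold (61.1 to 187) and 73.7-fold (50.3 to 111), and Krt72 gave 28 and 67, 164-fold (62.7 to 545) and 72.2-fold (42.9 to 127). Both are type II partners from the chromosome 15 cluster, and all 3 genes of the list were called, beside 32% of all genes compared.

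Shaft keratins outside the rule were present at lower counts and were also higher in the set. Of 10 such genes in the files 9 had a UMI and 6 passed the minimum. Those 6 were called higher, beside 32% of all genes compared, with median log2 ratios of 4.04 and 4.17. Krt83, a type II hair keratin, gave 37 and 72 UMIs, 496 and 487 CPM, which is 136-fold (62.2 to 338) and 105-fold (58.9 to 202) the level of the other spots. Krt31, a type I keratin of the cortex that lies close to Krt34, gave 17 and 56 UMIs, 125-fold (40.7 to 510) and 76.4-fold (42.6 to 146). Krt82, a keratin of the hair cuticle, gave 10 and 24 UMIs, at 97.9-fold (25.2 to 553) and 164-fold (49.8 to 850). Krt39, Krt84 and Krt32 fell below the minimum with 1 and 1, 0 and 2, and 6 and 8 UMIs, and Krt40 had none.

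Keratin-associated proteins, the sulfur- or glycine-rich matrix in which shaft keratins are set, were found for a minority of the family. The files hold 51 of their genes, 17 had a UMI in these spots and 9 passed the minimum. Those 9 were called higher, beside 32% of all genes compared, with median log2 ratios of 4.39 and 4.07. Krtap8-1, a glycine- and tyrosine-rich member whose gene lies on chromosome 16, gave 40 and 68 UMIs, at 235-fold (92.7 to 762) and 107-fold (58.6 to 211). Krtap15 gave 39 and 74 UMIs, at 382-fold (121 to 1930.3) and 44.6-fold (29.3 to 69), and the wide first interval rests on 3 UMIs in the other flat spots. Krtap13-1 followed with 24 and 44 UMIs, at 235-fold (71.3 to 1218) and 100-fold (48.2 to 233). Over the list the summed level was 2495 and 2585 CPM, 99.3-fold (73.1 to 137) and 55.9-fold (45.9 to 68.3) that of the other spots.

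Genes that harden and crosslink the follicle were also high, though part of this list is shared with epidermis. Padi3, the deiminase that turns arginines of trichohyalin into citrulline, gave 74 and 154 UMIs, 992 and 1042 CPM, at 181-fold (97.7 to 366) and 95.6-fold (65.3 to 144). Prr9, which encodes a small proline-rich protein in the epidermal differentiation complex on chromosome 3, gave 605 and 1204 UMIs, at 154-fold (126 to 190) and 56-fold (50.2 to 62.6), in 76.9% and 80.2% of the spots. S100a3, a calcium-binding protein of the hair cuticle, gave 33 and 94 UMIs, and Gprc5d, an orphan receptor of hard-keratin tissues, 25 and 106. Outside the lists, the gene Cpm, which encodes carboxypeptidase M, gave 50 and 145 UMIs, at 66.7-fold (39.7 to 116) and 33.7-fold (25.7 to 44.5), and AI661453 gave 52 and 93. Of the 18 cornification genes in the files 16 had a UMI and 12 passed the minimum. All 12 were called higher than the other spots, beside 32% of all genes compared, with median log2 ratios of 3.82 and 3.79. A lower ratio within that list was that of Ctsl, the lysosomal protease cathepsin L, at 4.29-fold (3.85 to 4.78) and 3.26-fold (3 to 3.55). Tgm3, a transglutaminase, stood at 20.3-fold (7.67 to 51.4) and 11.6-fold (6.52 to 20). These folds carry no added CPM, unlike the medians.

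Against epidermis, the shaft keratins, inner root sheath keratins and keratin-associated proteins that passed the minimum were again higher, whereas several basal keratins were lower, as given below. Interfollicular epidermis spots, 204 flat and 148 micropillar, were those in which the 5 epidermal rule genes reached the same minimum and were not exceeded by the follicle genes. Of the 2715 genes, 194 (7.15%) were called higher in hair follicle than in epidermis spots in both libraries, and all-gene median log2 ratios were 0.20 and 0.19. Called higher were 6 of 6 shaft keratins, 3 of 3 sheath keratins and 9 of 9 keratin-associated proteins that passed the minimum. The same held for 7 of 12 cornification genes, 1 of 12 desmosome genes, 4 of 16 follicle transcription factors and 2 of 9 outer root sheath and basal genes. Here the minimum counted UMIs in the hair follicle spots alone, which favours genes high there. The rule also set follicle against epidermal keratins, so the full counts are only a description. Padi3 was 24.1-fold (9.04 to 90.9) and 130-fold (23 to 5160.4) higher, the second against 1 UMI in epidermis, and Prr9 was 24.7-fold (17.3 to 36.4) and 28.2-fold (20.2 to 40.4) higher. Krtap8-1 stood 52.2-fold (8.84 to 2112) and 57.3-fold (9.95 to 2297) above epidermis, with 1 UMI in epidermis in each library. In the reverse direction 209 of 3221 genes (6.49%) were called lower in hair follicle spots, among them 14 of 15 genes of epidermal differentiation that passed. For this direction UMIs expected from the epidermis spots also counted toward the minimum, and 5 of the list passed on UMIs in the set. Most thus entered through their epidermal level, and nothing is read from that count. Flg, which encodes filaggrin, was 16.5-fold (12.6 to 22) and 46-fold (31.4 to 70.1) higher in epidermis spots, which were themselves chosen by genes of that layer.

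**Figure D2:**
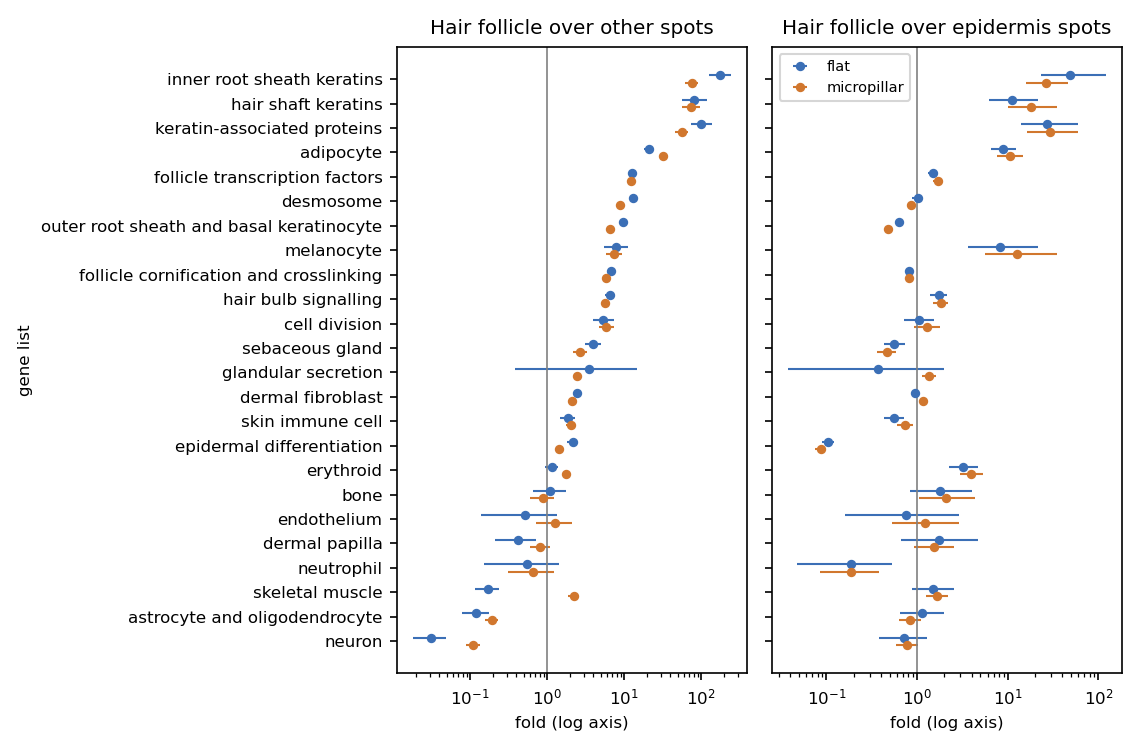
Fold (log axis) of the summed CPM of each gene list in hair follicle spots over other spots (left) and over epidermis spots (right), with flat in blue, micropillar in orange, and bars for the 95% counting interval. The shaft keratin, inner root sheath keratin and keratin-associated protein lists stand farthest to the right in both panels, at 55.9-fold or more on the left. Desmosome, cornification and basal genes are far above other spots but near or below 1 against epidermis.

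The desmosome, the junction that rivets keratin filaments of neighbouring cells together, was compared with both kinds of spots. All 16 of its genes had a UMI and 12 passed the minimum, which favours genes high in the set. Those 12 were called higher than in the other spots, beside 32% of all genes compared. Summed, the 16 genes stood 13.1-fold (11.6 to 14.7) and 8.92-fold (8.17 to 9.75) above the other spots. Against epidermis the same sum was 1.01-fold (0.889 to 1.15) and 0.849-fold (0.764 to 0.943). The exception was Dsg4, the desmosomal cadherin of the hair shaft, with 16 and 27 UMIs in hair follicle spots and 10.4-fold (2.45 to 93.6) and 22.8-fold (3.75 to 932) the epidermal level.

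Transcription factors of the follicle were found with few UMIs each. Of 24 all had a UMI and 16 passed the minimum, which favours genes that are high in the set. Those 16 were called higher than in the other spots, beside 32% of all genes compared, with median log2 ratios of 3.42 and 3.01. Hoxc13, a homeodomain factor that switches on hair keratin genes, gave 27 and 66 UMIs, 362 and 447 CPM, at 52.8-fold (27.1 to 107) and 71.1-fold (42.2 to 126). Msx2, a homeodomain factor of the hair matrix, gave 23 and 55 UMIs, at 96.5-fold (40.1 to 266) and 51.2-fold (30.7 to 88.2). Both were also called above epidermis, as were Lef1, the Wnt-responsive factor of the shaft precursors, with 6 and 15 UMIs against none in epidermis, and Cux1 with 10 and 19. Gata3, which guides the inner root sheath, and Hr, the hairless corepressor, were high in both compartments, Gata3 with 952 and 785 CPM here and 576 and 602 CPM in epidermis and Hr with 1542 and 1387 CPM here. Foxn1 itself gave 1 UMI in the flat and 6 in the micropillar spots and none in the other spots of at least 100 UMIs of either library. Where in the gene these UMIs were read is not given in the sources used here, so its level does not check the nude genotype.

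Signalling genes of the hair bulb stood above the other spots and only partly above epidermis. Of 26 genes 25 had a UMI and 11 passed the minimum, which favours genes high in the set. Those 11 were called higher than in the other spots, beside 32% of all genes compared. Of them 3, Wnt5a, Egfr and Lgr4, were also called above epidermis, beside 7.15% of all genes compared. Jag1, a Notch ligand, gave 18 and 47 UMIs, at 13.5-fold (7.3 to 24.3) and 21.4-fold (13.9 to 32.9) the other spots. Lgr4, an R-spondin receptor that strengthens Wnt signals, gave 42 and 64 UMIs, at 11.2-fold (7.66 to 16.1) and 7.58-fold (5.6 to 10.1). Shh, the ligand that drives follicle growth, had 2 and 4 UMIs, and Lgr5, a marker of follicle stem cells, had none.

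The outer root sheath and the basal layer share most of their markers, and these were intermediate. Krt14, the type I basal keratin, gave 464 and 854 UMIs, 6223 and 5779 CPM, which is 11-fold (9.86 to 12.2) and 6.91-fold (6.39 to 7.47) the other spots and lower than in epidermis, at 10075 and 12556 CPM. Gjb2, the gap junction gene of connexin 26, and Cxcl14, a chemokine, were the genes of this list called above epidermis, at 2.47-fold (1.38 to 4.56) and 2.68-fold (1.53 to 4.93) for Gjb2 and 4.49-fold (2.09 to 10.7) and 3.79-fold (2.1 to 7.33) for Cxcl14. Krt16, Krt17 and Krt6b were called lower than in epidermis.

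Genes of other skin cells accompanied the follicle to different degrees, and their part in the results was not tested. Melanocyte genes, which colour the shaft, gave 44 and 90 UMIs from 10 of 13 genes and stood 7.92-fold (5.55 to 11.1) and 7.43-fold (5.77 to 9.5) above the other spots and 8.2-fold (3.66 to 21.6) and 12.6-fold (5.59 to 35.4) above epidermis. Dct, a melanin enzyme, gave 16 and 33 of these UMIs and Pmel, the protein of the pigment fibril, 7 and 7, while Slc45a2, Oca2 and Sox10 were at 0. Dermal fibroblast genes were 2.45-fold (2.28 to 2.63) and 2.09-fold (1.99 to 2.2) above the other spots and near the epidermal level. Dermal papilla genes, from the mesenchymal core of the bulb, gave 12 and 47 UMIs and lay below the other spots in the flat library at 0.414-fold (0.213 to 0.728) and at 0.818-fold (0.598 to 1.1) of them in the micropillar library, with Sox2, Prom1, Vcan, Fgf10 and Hey2 at 0.

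Cell division genes, which mark the dividing matrix at the base of a growing follicle, gave 50 and 99 UMIs from 15 of 18 genes, 5.4-fold (3.91 to 7.32) and 5.89-fold (4.66 to 7.39) the other spots. Against epidermis, which also divides, their sum was 1.05-fold (0.71 to 1.55) and 1.28-fold (0.93 to 1.78). Sebaceous gland genes were 3.99-fold (3.12 to 5.04) and 2.69-fold (2.17 to 3.3) the other spots, led by Scd1 with 53 and 72 UMIs, and below epidermis at 0.562-fold (0.428 to 0.733) and 0.463-fold (0.362 to 0.591). Immune cell genes of skin were 1.86-fold (1.49 to 2.29) and 2.07-fold (1.78 to 2.39), and haemoglobin and other erythroid genes 1.15-fold (0.938 to 1.4) and 1.78-fold (1.57 to 2.02). Endothelial genes, with 4 and 16 UMIs, and neutrophil genes, with 4 and 10, had intervals that held 1 in both libraries.

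Adipocyte genes formed a group that none of the rule genes belongs to. Fabp4, the fatty acid carrier of adipocytes, gave 131 UMIs in the flat and 236 in the micropillar spots, 1757 and 1597 CPM, at 30.3-fold (23.5 to 39) and 38.1-fold (30.5 to 47.6) the other spots and in 46.9% and 50.6% of hair follicle spots against 4.37% and 3.89% of other spots. Car3, a carbonic anhydrase of fat and muscle, gave 132 and 217 UMIs, at 14.2-fold (11.5 to 17.6) and 25.8-fold (21.1 to 31.7), and Cfd, the secreted protease adipsin, gave 38 and 80, at 34.9-fold (21.2 to 57.6) and 43.1-fold (29 to 65.2). With each spot weighted alike, the log2 ratio of Fabp4 went from 4.70 to 2.94 in the flat library and from 4.95 to 4.06 in the micropillar library, and in spots of at least 500 UMIs to 6.72 and 5.44. These 3 genes, all that passed the minimum, were called above both other spots and epidermis spots. Of all genes compared 32% and 7.15% were called so, and the minimum favours genes high in the set. The remaining adipocyte markers were scarce, with 3 and 7 UMIs of Adipoq, 3 and 4 of Plin1, 5 and 3 of Cidec and none of Lep. The 7-gene sum was 20.8-fold (17.9 to 24.1) and 32.4-fold (28.2 to 37.1) the other spots. In spots with Krt34 or Krt35 over hair follicle spots without, it was 1.29-fold (1.02 to 1.62) and 1.05-fold (0.886 to 1.25).

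Genes known from neural tissue were among those lower in the set. Of 3866 genes, 1001 (25.9%) were called lower in hair follicle than in other spots. Among the genes with the lowest ratios were Nptx1, Nap1l5, Cadm4, Lrrc4b, Ube2ql1, Sst and Ina, several of them neuronal by name, such as the neuropeptide gene Sst and the neurofilament gene Ina. Nap1l5 gave 3 and 7 UMIs, 23.3-fold (7.96 to 113) and 26.8-fold (13 to 66.7) below the other spots. Nptx1, which encodes a secreted neuronal pentraxin, had no UMI and was at least 7.15-fold and 12.6-fold lower, taking 3 UMIs per library as the limit of detection. All 6 neuron genes that passed were called lower, as were 5 of 5 genes of astrocytes and oligodendrocytes. On UMIs seen in the set alone, 2 of each list passed, so most entered through their level in the other spots. Nothing is read from these counts. No UMI of either list was held by 105 flat and 139 micropillar hair follicle spots.

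Within the set, most spots held sheath keratin, both those with and those without shaft keratin. Krt34 and Krt35 made up 82 of 1252 UMIs of the 6 sheath and shaft rule keratins in the flat library (6.55%, 5.24 to 8.06) and 187 of 2366 in the micropillar library (7.90%, 6.85 to 9.06). Shaft UMIs outnumbered sheath UMIs in 1 flat and 5 micropillar spots and were fewer in 133 and 212. At least 1 shaft UMI was present in 42 flat (29.4%) and 92 micropillar spots (38.8%), of which 41 and 90 also had a sheath UMI. Of the spots without a shaft UMI, 95 of 101 flat and 126 of 145 micropillar spots had a sheath UMI, so a sheath UMI was common either way. Spots with shaft keratin were deeper, with medians of 616.5 and 746.5 UMIs against 443 and 480 without.

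**Figure D3:**
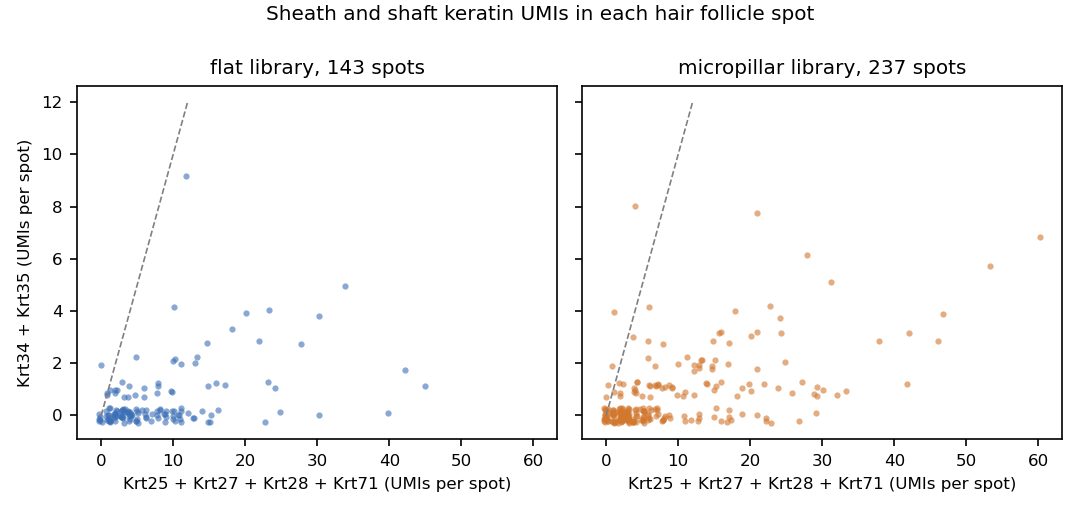
Each point is 1 hair follicle spot of the flat (left) or micropillar (right) library, with the UMIs of the 4 sheath keratins of the rule on the horizontal and of the shaft keratins Krt34 and Krt35 on the vertical axis, points shifted slightly at random so that they do not hide each other. The dashed line marks equal UMIs, and 1 flat and 5 micropillar spots have more shaft than sheath UMIs. Spots with equal UMIs, once shifted, can fall on either side of the line.

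Spots with Krt34 or Krt35 were richer in other hard-keratin genes and in sheath keratins. By summed list they were poorer in basal and dermal genes. Of 1819 genes with at least 10 UMIs in the set in each library, 24 (1.32%) were at least 2-fold higher in spots with a shaft keratin UMI in both libraries and 40 (2.2%) at least 2-fold lower, with all-gene median log2 ratios of 0.02 and 0.02. Among those higher were 5 of 7 keratin-associated protein genes compared, 1 of 5 shaft keratins and 1 of 3 sheath keratins. Summed, the shaft keratins outside the rule were 2.02-fold (1.37 to 2.99) and 2.42-fold (1.84 to 3.21). The sheath keratins outside the rule were 1.73-fold (1.34 to 2.22) and 2.62-fold (2.15 to 3.21), so keratins of both kinds were higher. Krt31 reached 447 and 601 CPM with and 105 and 161 CPM without, 4.27-fold (1.4 to 15.5) and 3.73-fold (1.94 to 7.76), and Krtap3-3, a high-sulfur matrix protein, 298 and 300.4 CPM with and 62.9 and 67.1 CPM without. The sheath gene Krt73 was higher as well, at 3.91-fold (2.26 to 7.01) and 3.56-fold (2.32 to 5.63), as was Ly6g6g, a gene of the Ly6 family, at 4.57-fold (2.41 to 9.18) and 3.84-fold (2.47 to 6.16). Farp1, which encodes a guanine nucleotide exchange factor, had 7 and 12 UMIs with and 4 and 2 without.

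On the other side, Krt14 was at 3727 CPM in flat spots with shaft keratin and 7626 CPM in those without, and at 2990.4 and 8520.1 CPM in micropillar spots. Cst6, a cystatin that inhibits cathepsin L and legumain, was 0.387-fold (0.226 to 0.632) and 0.175-fold (0.103 to 0.284), and the outer root sheath and basal list as a whole 0.597-fold (0.496 to 0.715) and 0.473-fold (0.417 to 0.536). The dermal fibroblast list was 0.787-fold (0.677 to 0.912) and 0.606-fold (0.547 to 0.671), with 0 of its 6 genes compared called lower. Scd1, a desaturase abundant in sebaceous glands, was 0.414-fold (0.185 to 0.836) and 0.448-fold (0.258 to 0.753). Psapl1, Unc93b1, Mgll, Atp6v0b, Btg1 and Thbs2 had the lowest ratios, each on 1 to 10 UMIs in the spots with shaft keratin of either library. Melanocyte genes went with the shaft keratins, at 1.95-fold (1.03 to 3.7) and 2.96-fold (1.82 to 4.99). Spots with a shaft keratin UMI were deeper, as given above, and the part of depth in these ratios was not tested.

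**Figure D4:**
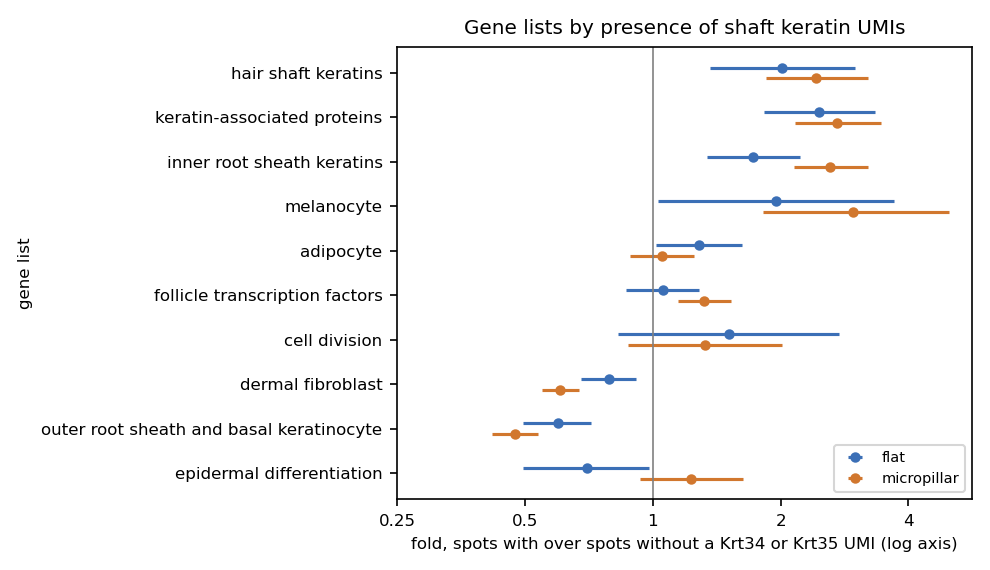
Fold (log axis) of the summed CPM of each list in hair follicle spots with over those without a UMI of Krt34 or Krt35, with the flat library in blue, the micropillar library in orange and bars for the 95% counting interval. Hard-keratin, inner root sheath keratin and melanocyte lists lie right of 1 in both libraries. Dermal fibroblast and outer root sheath lists lie left of it, and epidermal differentiation lies on opposite sides, at 0.7 and 1.23.

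Between the implants the follicle genes were compared singly and as summed lists. Tchh was 0.95-fold (0.892 to 1.01) in micropillar over flat hair follicle spots, Krt71 1.13-fold (0.999 to 1.29), Krt34 1.37-fold (0.921 to 2.08) and Krt35 0.988-fold (0.688 to 1.44). Krt25 was the rule gene whose interval lay wholly below 1, at 0.765-fold (0.672 to 0.873). These genes chose the spots in both libraries, so the rule itself bounds their levels within the set. Its 0.5% share left out 4 flat and 115 micropillar spots, and no likeness between the implants is read from these genes. Summed lists were 0.965-fold (0.829 to 1.13) for the sheath keratins outside the rule, 1.17-fold (0.932 to 1.47) for the shaft keratins, 1.04-fold (0.867 to 1.24) for the keratin-associated proteins, 0.925-fold (0.823 to 1.04) for the transcription factors and 1.03-fold (0.712 to 1.52) for the melanocyte genes. The dermal papilla list was 1.98-fold (1.03 to 4.09) and the desmosome list 0.855-fold (0.757 to 0.966), both with intervals that leave out 1. An interval that holds 1 does not show that levels were the same.

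Of 1759 genes with at least 20 UMIs in the set in either library, 94 (5.34%) were at least 2-fold higher in the micropillar and 22 (1.25%) at least 2-fold lower, and 93.4% lay within that fold either way around a median log2 ratio of 0.06. The micropillar set holds more UMIs, so 20 UMIs are a lower level there, which lets in more genes high in that library. For that reason 94 against 22 is not read as a direction, and at 50 UMIs a gene the counts were 9 and 1. Follicle genes among those higher were Krt33a, a type I shaft keratin, with 7 UMIs in the flat and 43 in the micropillar spots (3.1-fold, 1.38 to 8.17), Gprc5d with 25 and 106 (2.14-fold, 1.37 to 3.45), Krtap3-1 with 13 and 54 (2.1-fold, 1.13 to 4.19) and Dlx3, a homeodomain factor of hair formation, with 5 and 24 (2.42-fold, 0.906 to 8.13). They are 1 of 6 shaft keratins, 1 of 12 cornification genes, 1 of 8 keratin-associated proteins and 1 of 12 transcription factors compared, shares based on single genes and without a replicate.

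**Figure D5:**
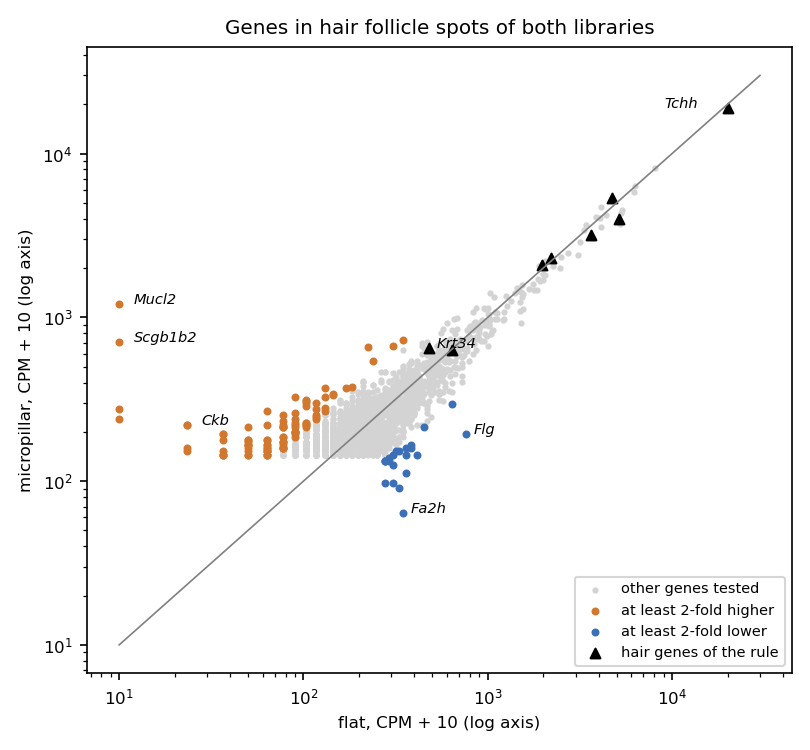
Each point is a gene, with its level in hair follicle spots of the flat (horizontal) and micropillar (vertical) library as CPM plus 10 on log axes, the diagonal marking equal levels. The rule genes (triangles), by which the spots were chosen in both libraries, lie close to the diagonal, as Tchh at 20104 and 19098 CPM. The genes farthest above it, Mucl2 and Scgb1b2, had no UMI in the flat spots.

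The 4 genes with the highest micropillar ratios are on the list of glandular secretion. That list was chosen with earlier results of these data known, so their place on it is no independent sign of gland tissue. Mucl2, a mucin-like secreted protein, had 0 UMIs in the flat and 177 in the micropillar hair follicle spots, at least 29.8-fold higher against a limit of 3 UMIs, and Scgb1b2, a secretoglobin, had 0 and 103, at least 17.3-fold higher. Gm1553 had 0 and 39 and Obp1a, an odorant-binding protein, 0 and 34. The same difference ran through the rest of the sections, where Mucl2 stood at 0.457 CPM in the other flat spots and 442 CPM in the other micropillar spots, a 966-fold ratio (173 to 38199) resting on 1 flat UMI. Within the micropillar library these UMIs were spread over 160 of 237 hair follicle spots, with 58 above 0.5% of UMIs, and Mucl2 was 2.71-fold higher there than in other spots. Micropillar epidermis spots also held the list, at 1838 CPM against 2484 CPM in the hair follicle spots, which is 1.35-fold (1.14 to 1.6).

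The other 6 of the 10 genes with the highest ratios were Ckb, Oxt, Hspa14, Map1a, Iscu and Ptprn, with 1 or 2 UMIs in the flat and 21 to 31 in the micropillar hair follicle spots. Oxt, the neuropeptide oxytocin, had 1 and 31, 15.6-fold (2.61 to 638). Of the 94 genes, 38 were lower in hair follicle than in other spots in both libraries, 30 of them at least 2-fold, and 26 were higher. That is 40.4%, 31.9% and 27.7% of the 94, where the same shares of all 1759 genes compared between the implants were 23.2%, 7.56% and 66.3%. The level in flat hair follicle spots enters both the ratio that chose the 94 and the flat ratio to other spots. Part of the gap between these shares was therefore fixed in advance, and nothing is read from it. Neuron list UMIs were 18 and 97 in the set, 2.72-fold (1.63 to 4.78) higher in the micropillar spots, and those of astrocytes and oligodendrocytes 27 and 105, 1.96-fold (1.28 to 3.12). With the spots that held any UMI of these lists left out, 49 of 771 genes were higher, 19 of them among the 94, of which 23 still reached the minimum count. The log2 ratios of the 10 named genes were then 1.91 to 7.30, with 3 of the 10 at or above that count. The part of neural tissue in the remaining differences was not tested.

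Genes lower in the micropillar spots included several of the epidermis. Flg had 56 UMIs in the flat and 27 in the micropillar spots, 751 and 183 CPM, 4.11-fold (2.55 to 6.77) higher in the flat library, and Fa2h, a fatty acid hydroxylase, had 25 and 8, 6.19-fold (2.71 to 15.9). Atp12a, a proton pump subunit, had 26 and 15, Prss8, the protease prostasin, 26 and 20, and Psapl1, a prosaposin-like gene, 30 and 20. Slc39a6, Dhrs7, Sidt2, Xdh and Mpzl2 completed the 10 lowest ratios, with 20 to 28 UMIs in the flat and 12 to 22 in the micropillar spots. Of the 22 genes, 10 were higher in epidermis than in hair follicle spots in both libraries, 7 of them at least 2-fold, and 16 were higher in hair follicle than in other spots. That is 45.5%, 31.8% and 72.7% of the 22, where the same shares of the 1759 genes were 22.6%, 2.16% and 66.3%. The 22 were chosen by a low level in micropillar hair follicle spots, which also enters the ratios to epidermis and other spots. Part of the gap between these shares was thus built in, and nothing is read from it. The 5 epidermal genes of the rule, which the rule capped, were 0.525-fold (0.424 to 0.651) in micropillar over flat spots, the epidermal differentiation list 0.599-fold (0.488 to 0.735) and the sebaceous gland list 0.654-fold (0.485 to 0.885). An epidermal rule UMI was present in 80 of 143 flat and 113 of 237 micropillar spots. With those spots left out the log2 ratio of Flg went from -1.98 to -0.74 and that of Fa2h from -2.43 to -2.67, and 6 of 625 genes were lower, none of them among the 22. Of the 22 genes 1 still reached the minimum count, and 9 of the 10 named remained at least 2-fold lower by ratio, all below that count.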

How the data were processed

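Each library was deposited as a matrix of raw UMI counts per gene and spot, with its list of genes and barcodes. The deposited counts are whole numbers and were not normalized. The pipeline was Space Ranger 2.0.1 per the file headers, but Cell Ranger 7.2.0 per the submitters' processing notes, which also name mm10. A directional mRNA kit stands in the labels' protocols. For the probe set, imaging and aligner the settings were not given in the sources used here, and the positions of spots were not analysed here. Spots under 100 UMIs were left out of the set and of all comparisons, no doublet caller was run on spots, and 11 rows whose symbol occurred more than once were left out of 19465.

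Counts were summed over the spots of a set in each library, scaled to CPM (a total of 1e+06), and compared as log2 ratios with 10 CPM added. Folds in the text carry no added value. Genes were named by a fixed rule: outside the rule genes, the 15 highest and 8 lowest ratios to other spots, the 10 highest and 10 lowest micropillar to flat ratios, the 6 highest and 6 lowest by shaft keratin, and from each list the most abundant member and the extremes. Further members are named from the lists to show their counts, and 1 gene that the rule names is not reported here. The comparison laid down by which keratins dominate a spot found too few shaft-leaning spots (1 flat, 5 micropillar), and the split by any Krt34 or Krt35 UMI replaced it after the data were seen, as did the 8 highest ratios to epidermis. The members and the 28 gene lists were chosen with earlier results of these data known, and 12 list entries were not found under those symbols. Gene coordinates came from GENCODE M21 (19440 of 19454 symbols matched), promoters from RefSeq, GRCm38.p6, with Krt35 not printed.

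Alternatives changed the scaling (TMM in edgeR 4.0.16, size factors of DESeq2 1.42.0), the weight of spots, the minimum of UMIs per spot and gene, the rule, the added CPM and mixed spots. The procedure was tested on simulated data. Work was done in Python 3.11.15 with numpy 2.4.6, scipy 1.17.1 and pandas 2.3.3, and in R 4.3.3. The depth of 74561 and 147765 UMIs makes 1 UMI worth more CPM in the flat set, so scarce genes are known less well there.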

Additional observations from a re-analysis of the deposited data

Results flagged for a closer look

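Spots under 100 UMIs, which no comparison used, also held follicle genes. In the flat library 30 of 22950 UMIs in 480 such spots came from the 8 rule genes (0.131%), and in the micropillar library 16 of 15345 in 239 spots (0.104%). Both shares lie above the limit that a count of 0 allows, 0.0131% and 0.0196%. Counting error alone is covered by these limits.

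Skeletal muscle genes stood on opposite sides in the libraries. Their sum in hair follicle over other spots was 0.168-fold (0.116 to 0.237) in the flat library and 2.22-fold (1.86 to 2.62) in the micropillar library. In the hair follicle spots it was 443 and 1022 CPM, and in the other spots 2627 and 461 CPM. All 8 genes had a UMI in the set, led by Acta1, the muscle actin, with 20 and 67 UMIs, and Myh1, a fast myosin, had 3 and 24. The difference between the libraries was not tested.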

How the results depend on the processing

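Each implant is 1 library, so values between implants have no replicate check. No paired analysis was possible because each group has 1 library. Of the counts and shares under alternatives, 44 stayed within 1.5 times the count or the counting interval of the share and 18 did not; the cause was not tested beyond what each alternative leaves out. Against other spots, the 870 genes higher became 571 with DESeq2 size factors, 353 at 50 UMIs a gene and 1483 at 1 UMI, and the 1001 lower became 460 and 1894 at those minimums. The 94 genes higher in micropillar spots became 9 and 2166 at 50 UMIs and 1 UMI, 49 without spots holding any neural UMI and 52 without those holding an epidermal one, 15 of the 52 being among the 94. The 22 lower became 13 with DESeq2 size factors, 5 in spots of at least 500 UMIs (3 of them among the 22), 1 and 1655 at 50 UMIs and 1 UMI, and 6 without spots with an epidermal UMI. The share of hair follicle spots was 4.35% (flat) and 6.46% (micropillar) among spots of at least 500 UMIs, 5.97% in the micropillar library with 5 UMIs and 1% in the rule, and 6.77% there when thinned. By shaft keratin, the 24 higher and 40 lower became 3 and 4 at 50 UMIs a gene, and the 40 became 13 at 500 UMIs a spot. Of 260 values of the 20 genes named between the implants 257 held within their interval. Other minimums of UMIs a gene, and leaving out spots above 2% neural UMIs, cannot change these ratios. Part of that agreement was therefore fixed in advance. Of 414 values of named genes against other spots 71 moved and none changed sign, and those genes stayed at least 2-fold apart in both libraries under the 9 settings tried. Those settings include the minimums of UMIs a gene, which cannot move a ratio. The log2 ratio of Fabp4 in the flat library ranged from 2.94 with each spot weighted alike to 6.72 in spots of at least 500 UMIs, against 4.70. Of 312 summed list values between the implants 14 moved and 1 reversed. The summed neuron ratio went from 1.41 to 0 on the log2 scale without spots with a neural UMI, which removes those genes by construction. Leaving out spots above 2% neural UMIs removed none. The splits by any neural or epidermal UMI and by shaft keratin were chosen after the data were seen.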
